A study of Mus musculus with 12 samples.

Results

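The Lce1 genes encode late cornified envelope proteins, and 10 of them were examined across all 4 groups of an ear injection experiment in mice. These were Lce1a1, Lce1a2, Lce1b, Lce1c, Lce1d, Lce1e, Lce1f, Lce1g, Lce1h and Lce1m, which are 10 of the 50684 genes in the count table. They were picked by name, as a group thought of as homeostatic beside the induced Lce3 genes, with the changes of these same libraries already known. Their changes between groups are therefore given as a description, with standard errors and without p-values. The label was not tested, and the 10 genes did not change alike, since Lce1m was far lower and Lce1f was higher after IL-36γ.

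IL-17A, IL-36γ or both recombinant mouse cytokines were injected intradermally into the ear pinnae of female C57BL/6 mice aged 8 weeks, at 1 µg of each cytokine in 5 µL PBS per the labels, and control mice received PBS. Ears were taken on day 4, after treatment on 4 consecutive days. The RNA of 3 mice per group, out of 5 mice per group in the study, was measured by RNA-Seq. The comparisons asked what each cytokine and their combination did to gene expression in this model of psoriasis-like skin. The RNA came from homogenized ear tissue, in which fewer cells of a type and less RNA per cell cannot be told apart. Expression is given as CPM (counts scaled to the library total, with TMM factors), and log2 fold changes come from 1 fit of all 12 libraries with edgeR.

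The cornified envelope is the cross-linked protein shell that replaces the plasma membrane of keratinocytes when they die and flatten at the skin surface. Late cornified envelope proteins are small and rich in glycine, serine and cysteine, and transglutaminases build them into the envelope late, after proteins such as loricrin and involucrin. Their genes lie side by side in the epidermal differentiation complex, together with those of filaggrin, loricrin and the small proline-rich proteins. The Lce1 group is mainly known from the upper layers of healthy epidermis, whereas the Lce3 group is known for its induction in wounded and psoriatic skin.

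All 10 genes lie on chromosome 3 of the mouse genome (GRCm38). The genes Lce1a1 to Lce1h are packed between chr3:92646535-92648307, the position of Lce1a1, and chr3:92763215-92765065, the position of Lce1h, and 4 further Lce1 genes follow them. Lce1m lies apart at chr3:93017810-93019060 on the minus strand, beyond the 6 Lce3 genes and next to Crct1. Each of the 10 genes has 2 exons, with the whole coding sequence in exon 2, and no annotated gene overlaps any of them. The Lce1m transcript was also the least like the others. Its identity with them had a median of 54.65% (48.93% to 59.62%, 9 pairs), against 75.49% (59.13% to 88.67%, 36 pairs) among the other 9. Of all stretches of 76 bases, the read length, Lce1m shared 0% with another annotated transcript and the other 9 genes shared between 0.781% (Lce1a2) and 13.4% (Lce1e), so that reads of the latter could in part be assigned to a neighbour or be lost as ambiguous.

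The stretches before the start sites of 5 of the genes are shown because Lce1m differed from the others in sequence as well as in expression. Each is the 120 bases upstream of the RefSeq start (GRCm38.p6), all on the minus strand of chromosome 3, written in the direction of transcription. The positions are chr3:92648308-92648427 for Lce1a1, chr3:92656927-92657046 for Lce1b, chr3:92709075-92709194 for Lce1e, chr3:92752339-92752458 for Lce1g and chr3:93019062-93019181 for Lce1m. Capitals mark a block shared by Lce1a1, Lce1b, Lce1e and Lce1g and, nearer the start, the TATA-type letters ATAAAA in all but Lce1a1.
Lce1a1: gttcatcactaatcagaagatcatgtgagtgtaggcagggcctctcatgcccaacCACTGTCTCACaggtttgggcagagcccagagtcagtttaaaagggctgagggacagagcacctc
Lce1b: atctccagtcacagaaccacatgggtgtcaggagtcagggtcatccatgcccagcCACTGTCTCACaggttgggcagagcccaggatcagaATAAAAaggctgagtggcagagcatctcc
Lce1e: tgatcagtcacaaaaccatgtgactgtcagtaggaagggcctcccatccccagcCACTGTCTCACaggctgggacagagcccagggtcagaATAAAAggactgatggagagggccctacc
Lce1g: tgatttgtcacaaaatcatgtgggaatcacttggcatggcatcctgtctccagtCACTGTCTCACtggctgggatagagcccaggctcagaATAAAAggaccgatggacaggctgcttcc
Lce1m: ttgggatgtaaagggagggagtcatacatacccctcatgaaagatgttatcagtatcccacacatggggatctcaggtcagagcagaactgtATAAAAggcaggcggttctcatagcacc

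Of the 10 genes, 9 had a promoter entry, the one without being Lce1f. Motifs were searched on both strands of the 250 bases upstream. The block CACTGTCTCAC, the longest run of letters common to the stretches shown of Lce1a1, Lce1b, Lce1e and Lce1g, was chosen after these sequences were seen. It occurred in 7 of the 9, among them by construction the genes that defined it, the exceptions being Lce1c and Lce1m. Among all 32851 promoter entries it occurred in 15 (0.0457%), of which 8 belonged to Lce1 genes, the eighth being Lce1j. ATAAAA occurred in 8 of the 9, Lce1a1 being the exception, in 6 of 6 Lce3 genes and in 17% of all entries. The letters TGANTCA (AP-1) and TTCNNNGAA (STAT) occurred in 0 of the 9, likewise in 0 of 6 Lce3 genes, and in 6.75% and 7.02% of all entries. The promoter of Lce1m had a median identity of 53.52% (52.7% to 55.02%, 8 pairs) with those of the other genes, against 68.62% (61.43% to 84.52%, 28 pairs) among the latter. These matches describe letters only.

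The libraries held between 25293468 and 34759293 counts. All 10 genes passed the filter on low counts, with between 366 counts (Lce1m, IL-17A + IL-36γ replicate 2) and 11647 counts (Lce1m, PBS replicate 1) in a library, so that the spread between mice rather than counting error limits the comparisons. The markers of suprabasal keratinocytes (Krt1, Krt10, Krtdap, Dsg1a, Dsc1, Sbsn) were all detected in each library, as were those of basal keratinocytes and fibroblasts. Some libraries stood apart within their group. The 8 skeletal muscle markers summed to 393 CPM in PBS replicate 1, against 3308 and 2874 CPM in the other PBS libraries, and to 407 and 247 CPM in replicates 1 and 2 after the combination, against 1289 CPM in replicate 3. In IL-17A replicate 1 the Lce3 genes and the stress keratin Krt6b (690 CPM) lay far above the other IL-17A libraries (48.7 and 70.4 CPM).

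In PBS-treated ears Lce1m was the most strongly expressed of the 10 genes. On a scale that corrects for transcript length (RPKM, CPM per kilobase of exon) it reached 332 ± 6.85 (SD, n = 3). The next genes in order were Lce1a1 with 146 ± 40.2, Lce1a2 with 139 ± 26.2, Lce1c with 127 ± 37 and Lce1b with 118 ± 20.4 RPKM, with overlapping ranges of mean ± SD. Lce1d had 81.7 ± 23.2 RPKM, and Lce1h, Lce1g, Lce1e and Lce1f lay between 37.3 and 47.9 RPKM, again with overlapping ranges. The SD is the spread between mice, which these genes largely share, and the order of genes within each library was not tested. After IL-17A + IL-36γ the order was different. Lce1m was now the lowest of the 10, with 33.4 ± 17 RPKM, and Lce1a1 was the highest, with 139 ± 68.1 RPKM. Lce1f moved from the last place to the fifth, with 78.2 ± 30.9 RPKM.

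**Figure D1:**
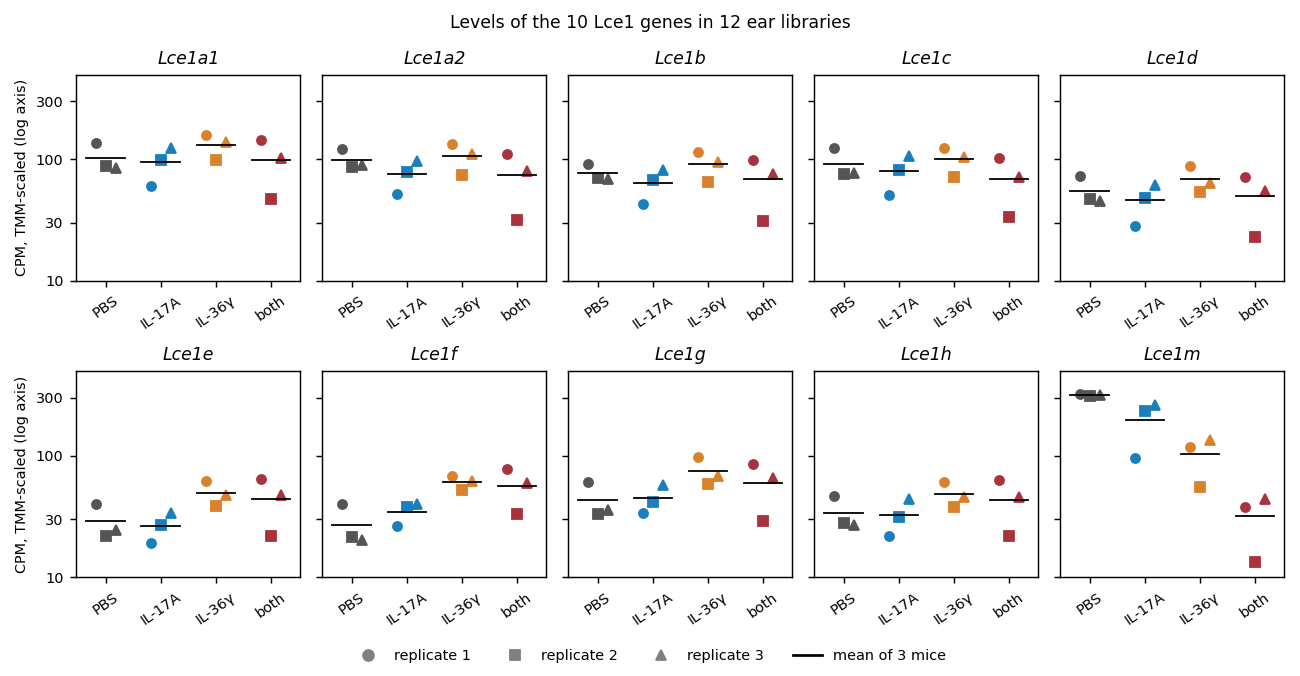
CPM of the 10 Lce1 genes in each library on a log axis, by group ("both" is IL-17A + IL-36γ), with the symbol giving the replicate and the line the mean of 3 mice. Lce1m steps down from 315 CPM on average after PBS to 31.7 CPM after both cytokines, and for most other genes the groups overlap.

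Lce1m had 322, 310 and 314 CPM in the PBS libraries and 95, 235 and 264 CPM in the IL-17A libraries. It had 118, 55.7 and 135 CPM after IL-36γ and 37.7, 13.4 and 44 CPM after IL-17A + IL-36γ. All 9 cytokine libraries lay below the 3 PBS libraries, and all combination libraries lay below all IL-36γ libraries, whereas the IL-17A and IL-36γ libraries overlapped through IL-17A replicate 1. From high to low, the group means were 315 ± 6.5 CPM (PBS), 198 ± 90.3 CPM (IL-17A), 103 ± 41.6 CPM (IL-36γ) and 31.7 ± 16.2 CPM (combination). The log2 fold change against PBS was -0.67 ± 0.43 (SE) with IL-17A and -1.62 ± 0.43 with IL-36γ. With both cytokines it was -3.31 ± 0.44, a level 9.94-fold lower than in PBS. The log2 fold change of the combination was -1.70 ± 0.44 against IL-36γ alone and -2.64 ± 0.44 against IL-17A alone. The interaction compares what IL-17A did on top of IL-36γ with what it did alone, and was -1.02 ± 0.62. Without IL-17A replicate 1, the lowest of its group, the value for IL-17A was -0.37. With the skeletal muscle marker level as a covariate the values after IL-36γ and after both were -1.72 and -3.07, and the part of the tissue composition in them was not tested further.

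Lce1f had 40.1, 21.3 and 20.1 CPM in the PBS libraries and 26.2, 37.6 and 39.9 CPM in the IL-17A libraries. It had 68.5, 52.5 and 62.1 CPM after IL-36γ and 78.2, 33.4 and 59.2 CPM after IL-17A + IL-36γ. The IL-36γ libraries all lay above those of PBS and IL-17A, while combination replicate 2 lay among them. The means were 27.1 ± 11.2 CPM in PBS and 34.6 ± 7.34 CPM in the IL-17A group. Those of the IL-36γ group (61 ± 8.04 CPM) and of the combination (56.9 ± 22.5 CPM) were higher, and this last pair did not differ beyond its spread. Its log2 fold change against PBS was 1.17 ± 0.31 with IL-36γ and 1.07 ± 0.31 with both cytokines, and 0.35 ± 0.31 with IL-17A alone. PBS replicate 1, the PBS library with low muscle markers, held the highest Lce1f level of its group. Without it the values after IL-36γ and after both were 1.56 and 1.46, and with the muscle marker level as a covariate they were 1.23 and 0.96.

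The other 8 genes showed smaller differences, and in most of them the groups overlapped. Lce1a1, one of the most highly expressed, had 136, 87.9 and 85.3 CPM in the PBS libraries and 60.9, 99.2 and 124 CPM with IL-17A. It had 159, 99.6 and 138 CPM with IL-36γ and 143, 47.6 and 103 CPM with both cytokines. Combination replicate 2 was the lowest and IL-36γ replicate 1 the highest of the 12 libraries. The means for PBS (103 ± 28.3 CPM) and the combination (98 ± 48 CPM) were closer to each other than either SD, with a log2 fold change of -0.07 ± 0.36. Lce1a2, Lce1b, Lce1c and Lce1d gave log2 fold changes between -0.42 and -0.16 after the combination and between 0.10 and 0.31 after IL-36γ, each smaller than 2 standard errors.

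Lce1e, Lce1g and Lce1h, the neighbours of Lce1f on the chromosome, sat between these genes and Lce1f. Lce1e had 40.4, 21.9 and 24.3 CPM in the PBS libraries and 19.3, 27 and 33.6 CPM after IL-17A. It had 62.6, 38.9 and 47.2 CPM after IL-36γ and 64.1, 21.8 and 47.5 CPM after both. After IL-36γ 2 of 3 libraries exceeded all PBS libraries, and after the combination replicate 2 lay at the lower PBS libraries. Its log2 fold change was 0.78 ± 0.35 after IL-36γ and 0.62 ± 0.35 after both. Those of Lce1g were 0.79 ± 0.36 and 0.47 ± 0.36, and those of Lce1h were 0.51 ± 0.36 and 0.36 ± 0.36. After IL-17A alone the log2 fold changes of these 3 genes lay between -0.12 and 0.04.

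A gene counted as called when its absolute log2 fold change exceeded 1 and its p-value, adjusted by Benjamini-Hochberg over the 19408 genes tested (edgeR quasi-likelihood test), lay below 0.05. After IL-36γ, 1 of the 10 genes was called lowered (Lce1m), where 1.98% of all genes tested were, and 1 was called raised (Lce1f), where 5.11% were (7.1% in either direction). After the combination, again Lce1m was called lowered, beside 6.06% of all genes, and Lce1f raised, beside 7.35% (13.4% in either direction). After IL-17A alone edgeR called 0 of the 10, with 0 at an unadjusted p-value below 0.05 and 0 by DESeq2, where 1.03% of all genes were called lowered and 1.07% raised (2.1% in all). In the combination against IL-17A, 1 of the 10 (Lce1m) was called lowered, beside 4.49% of all genes, and 0 of the 10 raised, beside 4.46% (8.95% in either direction). In the combination against IL-36γ edgeR called 0 of the 10, with 1 at an unadjusted p-value below 0.05 and 0 by DESeq2, where 0.0103% of all genes (2 genes) were called lowered. The interaction was called for 0 of the 10, with 0 at an unadjusted p-value below 0.05 and 0 by DESeq2, beside 0.551% of all genes. The libraries of Lce1m lay wholly below those of PBS after IL-17A, IL-36γ and the combination, as did 14%, 19.2% and 25.6% of all genes. They also lay wholly below in the combination against IL-36γ and against IL-17A, as did 11.3% and 25.4% of all genes. Lce1f lay wholly above PBS after IL-36γ, where 22.4% of all genes did. No other of the 10 genes had libraries apart in any of these comparisons, where 19.6% (IL-17A), 27% (combination), 9.33% (combination against IL-36γ) and 23% (combination against IL-17A) of all genes lay wholly above. Because these comparisons were known when the genes were picked, nothing is read from these counts. The call of Lce1m after IL-36γ was lost without PBS replicate 3 (log2 fold change -1.62) or without IL-36γ replicate 2 (-1.32). That of Lce1f was lost without PBS replicate 2 or 3 in both comparisons, without IL-36γ replicate 1 after IL-36γ (1.06), and without combination replicate 1 after both (0.77), and the calls of Lce1m after both cytokines were kept in each of these fits. Without PBS replicate 1, Lce1e (1.10) and Lce1g (1.13) were also called raised after IL-36γ. Without combination replicate 2, Lce1e (1.09) and Lce1f (1.01) were called raised in the combination against IL-17A.

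The median log2 fold change of the 10 genes was -0.16 with IL-17A, where that of all genes tested was 0.04. It was 0.34 with IL-36γ (all genes -0.02) and -0.11 with both cytokines (all genes -0.03). After IL-36γ 9 of the 10 values lay above 0 and after IL-17A + IL-36γ 4 did. When the libraries were scaled by their total only, the median of all genes shifted to -0.13, -0.16 and -0.17 in these comparisons, and 7 of the 10 values after IL-36γ then lay above 0. The signs of Lce1m and Lce1f were the same under each scaling tried. Without combination replicate 2 the median of the 10 genes after both cytokines was 0.21, and without PBS replicate 1 it was 0.14, so that its sign rests on single libraries. The median after IL-17A was 0.10 when PBS replicate 1 was left out and 0.02 when IL-17A replicate 1 was. Against IL-36γ alone all 10 values of the combination lay below 0, with a median of -0.43. In this comparison same-numbered mice deviated together over all genes (r of 0.13 to 0.24), although the labels give a replicate number only and state no pairing. With the replicate number as a block the median was -0.48. When same-numbered mice were taken as 3 pairs, 7 of the 10 genes were lower in the combination in every pair. The exceptions were Lce1e, Lce1f and Lce1h. The share of all genes lower in every pair was not counted, and the 10 genes, which moved together within groups, are not separate observations. The sum of the 10 genes was also lower in every pair (1026 to 855, 608 to 287 and 872 to 646 CPM). The drop was largest in replicate 2, and the median without combination replicate 2 was -0.08 in the fit without the block.

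The 10 genes together held 781 to 1056 CPM in the PBS libraries and 287 to 855 CPM after IL-17A + IL-36γ. From PBS to the combination the mean of this sum dropped by 31.9%, less than the spread of the combination libraries. Without Lce1m, the sum of the other 9 genes was 559 ± 150 CPM in PBS and 564 ± 274 CPM after both. After IL-36γ alone the sum of these 9 was 733 ± 178 CPM. The share of Lce1m in the sum was 30.5%, 39.6% and 39.9% in the PBS libraries and 22.1%, 31.4% and 29% in the IL-17A libraries. It was 11.5%, 9.16% and 15.4% with IL-36γ and 4.4%, 4.67% and 6.82% with both cytokines. These shares did not overlap between PBS, IL-36γ and the combination. A share within a library does not depend on how the library was scaled.

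**Figure D2:**
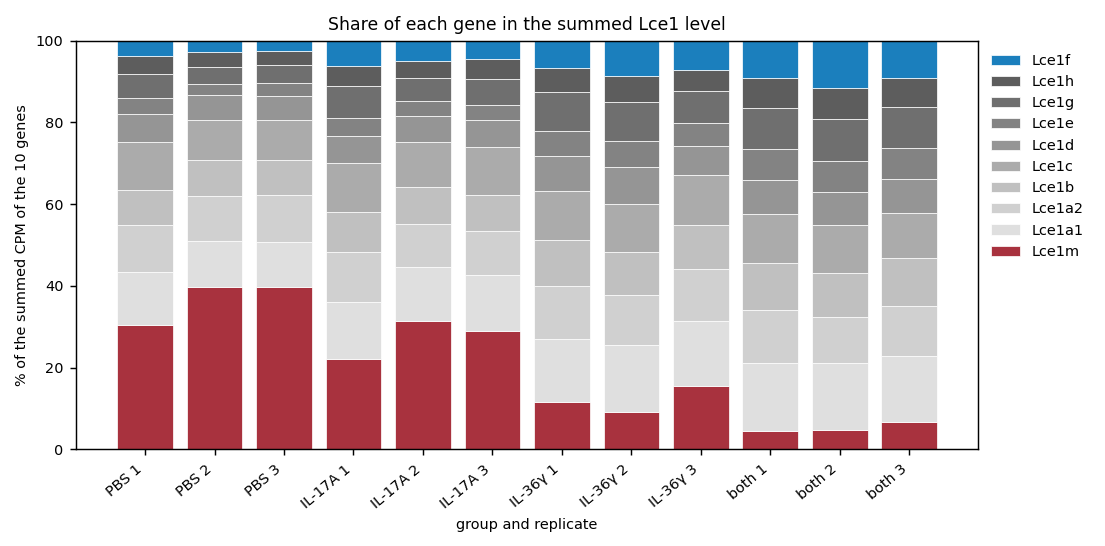
Share of each of the 10 genes in their summed CPM, in percent, for each library ("both" is IL-17A + IL-36γ). Lce1m (red) takes 30.5% to 39.9% in the PBS libraries and 4.4% to 6.82% after both cytokines, whereas the share of Lce1f (blue) goes from 2.55% to 3.79% up to 9.14% to 11.6%. The mean share of each of the other genes is also higher after both cytokines than after PBS.

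The share of Lce1f was 2.55% to 3.79% in PBS and 4.38% to 6.08% with IL-17A. It was 6.67% to 8.64% with IL-36γ and 9.14% to 11.6% with both cytokines, without overlap between any of the groups. Since Lce1m is part of this sum, the share was also taken over the other 9 genes. It was then 4.23% to 5.46% in PBS and 6.17% to 7.8% with IL-17A. It reached 7.54% to 9.52% with IL-36γ and 9.56% to 12.2% with both cytokines, and here the IL-17A and IL-36γ libraries overlapped. Such a rise was not particular to Lce1f. Over the same 9 genes Lce1e held 4.64% to 5.51% in PBS, 6.4% to 7.04% with IL-36γ and 7.84% to 7.98% with both. From PBS to the combination the mean shares of Lce1g and Lce1h rose too, while those of Lce1a1, Lce1a2, Lce1b, Lce1c and Lce1d fell. In combination replicate 2, which had the lowest level of most Lce1 genes, Lce1f had its highest share.

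Within a group, the 10 genes went up and down together from mouse to mouse. In combination replicate 2 each of them lay below its group mean, by 0.68 (Lce1f) to 1.07 (Lce1m) on the log2 scale. In IL-17A replicate 1 each lay below it as well, by 0.37 (Lce1g) to 0.93 (Lce1m), and in IL-36γ replicate 2 by 0.21 (Lce1f) to 0.78 (Lce1m). In PBS replicate 1 the 9 genes other than Lce1m lay above their mean, by 0.27 to 0.64, while Lce1m deviated by 0.03 only. IL-17A replicate 1 was thus low in Lce1 genes and high in Lce3 genes compared with its group. As a description over 12 libraries, Pearson's r of the deviations of 2 genes from their group means was between 0.90 and 1.00 (36 pairs, median 0.98) among the 9 and between 0.71 and 0.90 (9 pairs, median 0.84) with Lce1m. The values of a library share its RNA, its depth and its scaling. Without removing group means, r had a median of 0.89 among the 9 and 0.37 with Lce1m, and was lowest between Lce1f and Lce1m (-0.42).

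**Figure D3:**
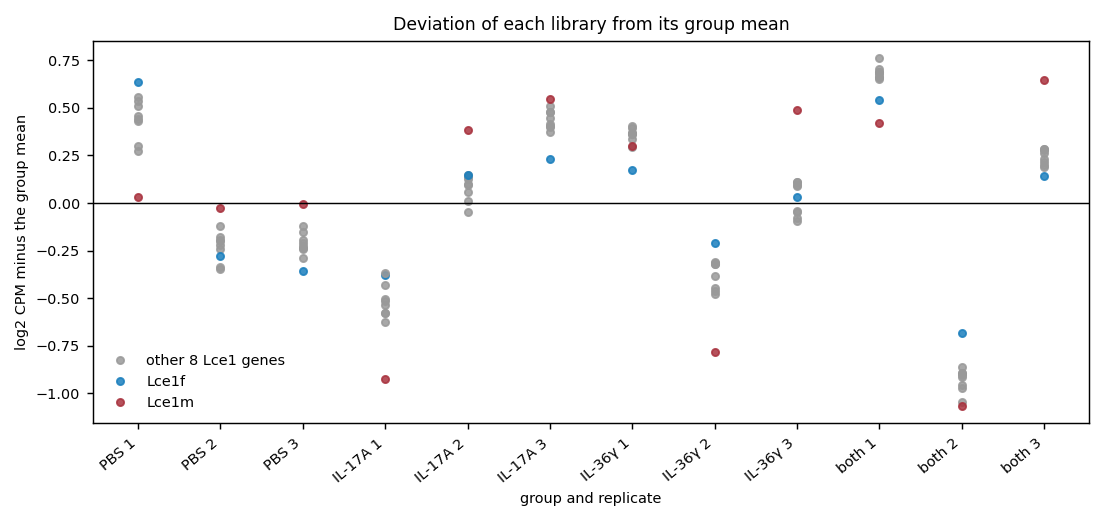
Difference of each gene's log2 CPM from the mean of its group, for each library ("both" is IL-17A + IL-36γ), with 1 point per gene. All 10 points lie below 0 in IL-17A replicate 1, IL-36γ replicate 2 and combination replicate 2, and in the PBS libraries Lce1m (red) stays within 0.03 of its mean.

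The summed level of the 9 genes was also set against Krt10, the keratin of differentiating keratinocytes. In the PBS libraries it amounted to 8.98%, 9.33% and 9.32% of the Krt10 level, so that Krt10 was high in replicate 1 as well. It amounted to 5.96%, 7.51% and 7.81% in the IL-17A libraries and to 7.48%, 5.7% and 8.24% in the IL-36γ libraries, each below every PBS library. For IL-36γ this ratio was thus lower than in PBS although the sum of the 9 genes itself was higher on average. In the combination libraries it amounted to 10.2%, 3.3% and 7.24%, overlapping with PBS. Krt10 itself had 8016, 8286 and 8316 CPM there, and replicate 2, which was low in the Lce1 genes, was not low in Krt10.

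The same was measured for the 4 Lce1 genes that were not on the list. Lce1i, Lce1j, Lce1k and Lce1l gave log2 fold changes of -0.02, 0.01, 0.49 and -0.81 after IL-17A + IL-36γ, with adjusted p-values of 0.98, 0.99, 0.35 and 0.092 (edgeR quasi-likelihood test). After IL-36γ they gave 0.31, 0.40, 0.85 and -0.24. No change was called for them against PBS by edgeR or DESeq2, and at an unadjusted p-value below 0.05 there were 0 of the 4 with either cytokine alone and 1 with both. The Lce1l libraries after both cytokines (14.3 to 41.4 CPM) all lay below those of PBS (46 to 65.2 CPM), while for the other 3 genes these groups overlapped. After IL-36γ the Lce1k libraries (29.3 to 43.1 CPM) all lay above those of PBS (16.4 to 24.2 CPM), as those of Lce1f did. Of all genes, 25.6% lay wholly below PBS after both cytokines and 22.4% wholly above it after IL-36γ.

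The Lce3 genes lie between this block and Lce1m and contrasted with both. All 6 were called raised after IL-36γ (5.11% of all genes) and after the combination (7.35% of all genes), with log2 fold changes of 2.22 to 5.93 and 3.29 to 7.20 against PBS. After IL-36γ the calls of Lce3c, Lce3d, Lce3e and Lce3f were lost when either PBS replicate 3 or IL-36γ replicate 2 was left out. Those of Lce3c, Lce3d and Lce3e were lost without PBS replicate 2, and those of Lce3c and Lce3d without IL-36γ replicate 1. After the combination all 6 calls were kept with each library left out. Lce3b had 0.111, 0.878 and 0 CPM in the PBS libraries and 104, 14 and 30.8 CPM after both cytokines, with no overlap (adjusted p = 0.0018, edgeR quasi-likelihood test). With PBS levels this low the size of its log2 fold change, 7.20, rests on single libraries, and was 6.05 without combination replicate 1 and 9.65 without PBS replicate 2. Part of the reads fit several Lce3 genes, since up to 45.5% of the 76-base stretches of a Lce3 transcript were shared, so that the single members are less certain than the group. After IL-17A alone edgeR called 0 of them, with 4 of the 7 Lce3 and Lce6 genes at an unadjusted p-value below 0.05 and 0 called by DESeq2, and only IL-17A replicate 1 was high (9.81 CPM of Lce3b, against 0.366 and 0.523 CPM). Lce6a, at the other end of the cluster, gave 0.69 ± 0.34 after IL-36γ and 0.19 ± 0.34 after both, and Crct1, which lies next to Lce1m and encodes a cysteine-rich C-terminal protein, gave 0.15 ± 0.34 and 0.02 ± 0.34.

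**Figure D4:**
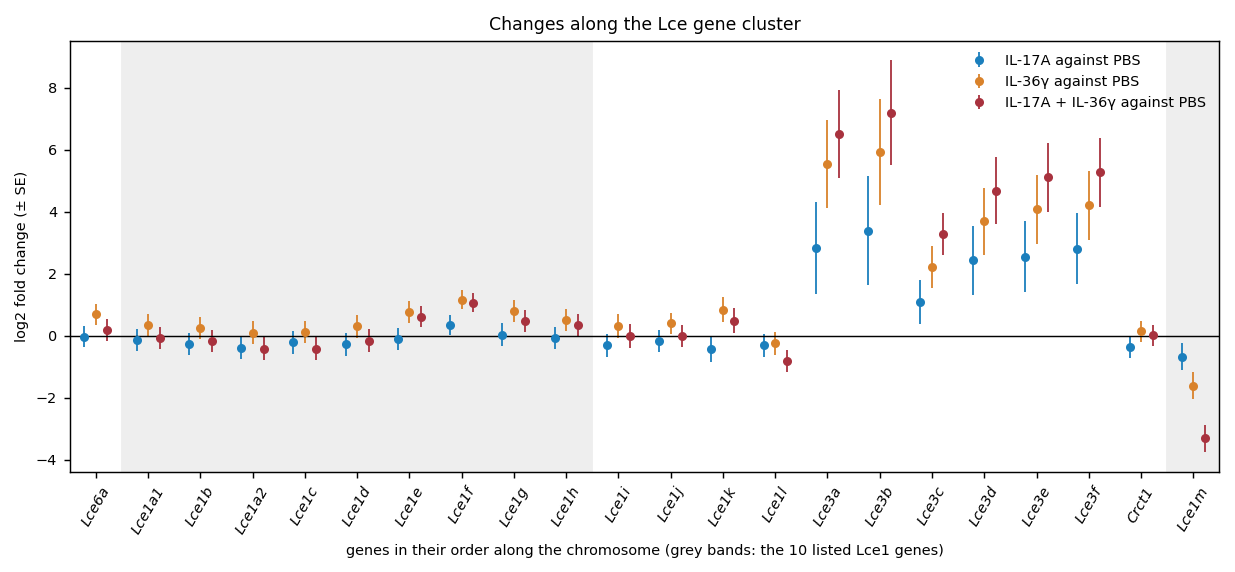
Log2 fold change against PBS, with standard errors, of the Lce genes and Crct1 in their order along chromosome 3; grey bands mark the 10 listed Lce1 genes. The Lce1 genes other than Lce1m lie between -0.81 and 1.17, the 6 Lce3 genes reach up to 7.20, and Lce1m at the right end goes down to -3.31 although its neighbour Crct1 stays at 0.02 after both cytokines.

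Among the late envelope and filaggrin-type proteins, 11 of 12 listed genes were tested. After IL-17A + IL-36γ 4 were called raised, beside 7.35% of all genes, and 1 was called lowered, beside 6.06%. The lowered gene was Flg2, which encodes filaggrin-2, a protein of the upper epidermis. It had 2703, 2466 and 2526 CPM in the PBS libraries and 594, 291 and 828 CPM after both cytokines, with a log2 fold change of -2.17 ± 0.37 (adjusted p = 0.00097, edgeR quasi-likelihood test). Its libraries did not overlap, as for Lce1m, and combination replicate 2 was again the lowest. The raised genes were Rptn (repetin, log2 fold change 4.54), Cnfn (cornifelin, 2.47), Flg (filaggrin, 2.03) and Ivl (involucrin, 1.53). Flg had 577 CPM in PBS replicate 1 against 124 and 154 CPM in the other PBS libraries. Without this replicate its value was 3.07 after both cytokines, and Flg was then also called raised after IL-17A, where its value was 0.26 with all libraries. Lor, which encodes loricrin, the main protein of the envelope, gave -0.02 ± 0.20 after both cytokines and 0.57 ± 0.20 after IL-36γ. After IL-36γ 4 of these genes were called raised, beside 5.11% of all genes, and 1 lowered, beside 1.98%. The lowered gene was Tchh (trichohyalin, a hair follicle protein, -1.07). After IL-17A Tchh alone was called (-1.09), beside 2.1% of all genes.

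Of the 10 enzymes that cross-link or process envelope proteins, 2 were called raised after IL-17A + IL-36γ and 0 lowered. Of all genes, 7.35% were called raised and 6.06% lowered in this comparison. The enzymes called were Tgm3, a transglutaminase, with a log2 fold change of 1.85 ± 0.18, and Casp14, a protease of cornification, with 3.01 ± 0.26 (adjusted p = 3.0e-05 and 2.0e-05, edgeR quasi-likelihood test). Tgm1 gave 0.91 ± 0.20. Without regard to the size of the change, 7 of the 10 had an adjusted p-value below 0.05 with a higher level. Of the 19408 genes tested, 8664 had such a p-value in either direction. Of 10 genes for suprabasal keratins and adhesion proteins, Krt1 alone was called, with 4.21 ± 0.37, while Krt10 gave 0.43 ± 0.20 (adjusted p = 0.10). The stress keratins Krt6a, Krt6b and Krt16 were called raised (4.27, 7.20 and 5.85). Without PBS replicate 2, the PBS library highest in these 3 genes, the values of Krt6b and Krt16 were 11.03 and 7.22. Called raised were also 11 of 13 small proline-rich protein genes tested, with Sprr2b (10.55), Sprr2d (7.87) and Sprr2e (7.18) first. These lists were compiled with results of these libraries in view.

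**Figure D5:**
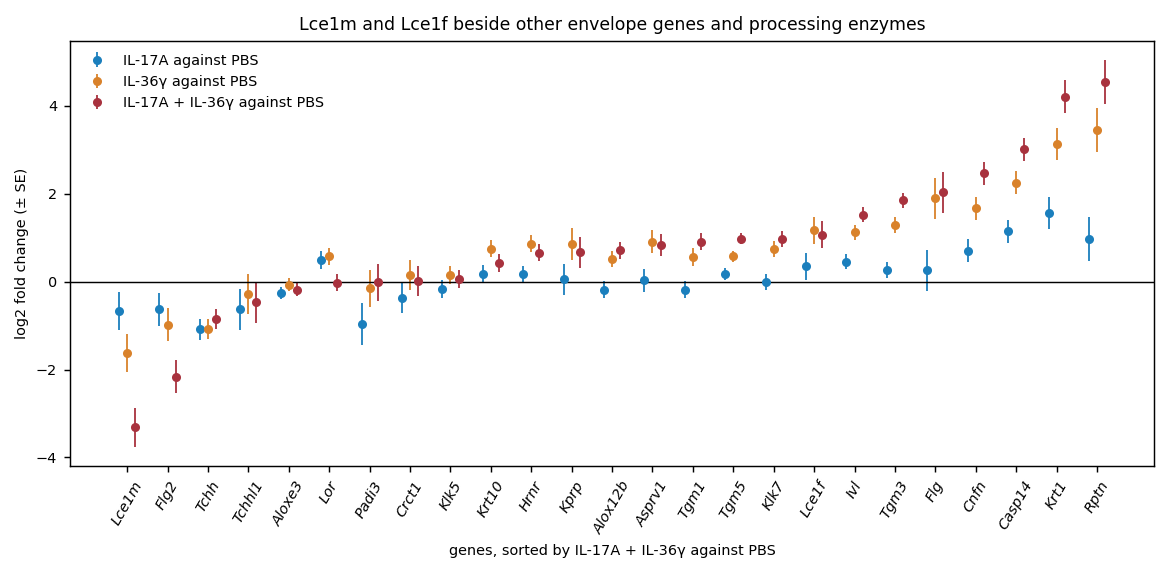
Log2 fold change against PBS, with standard errors, of Lce1m and Lce1f beside other envelope genes, the keratins Krt1 and Krt10 and the processing enzymes, sorted by the value after both cytokines. Lce1m (-3.31) and Flg2 (-2.17) lie lowest and Rptn (4.54) highest after both cytokines, while Lor stays at -0.02.

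Of 21 regulators of epidermal differentiation, edgeR called 0 after IL-17A + IL-36γ, beside 13.4% of all genes. Of the 21, 8 had an unadjusted p-value below 0.05, and DESeq2 called 0. At an adjusted p-value below 0.05 there were 7, each with a smaller change, beside 8664 of the 19408 genes tested. Klf4, a transcription factor needed for the skin barrier, had 276 to 342 CPM in the PBS libraries and 268 to 322 CPM after both cytokines, with a log2 fold change of 0.01 ± 0.12. Junb, a subunit of AP-1, was called raised after IL-17A (1.09 ± 0.16) and after IL-36γ (1.11 ± 0.16), and had 0.93 ± 0.16 after both.

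Markers of other cells moved along with the cytokines. Beside the lower Lce1m level after the combination, 5 of 6 neutrophil markers were called raised. The other marker, Il1r2, went the other way (-0.29, adjusted p = 0.068, edgeR quasi-likelihood test), with libraries wholly below PBS. All 6 together summed to 152 to 268 CPM against 98.2 to 114 CPM in PBS. All 5 adipocyte markers were called lowered (71.8 to 120 CPM against 196 to 295 CPM), as were 2 of 4 cartilage markers tested, 1 of 8 skeletal muscle markers and 2 of 6 hair follicle markers. Of all genes, 6.06% were called lowered and 7.35% raised in this comparison, and 25.6% lay wholly below PBS. All 8 muscle markers lay below 0 (-3.03 to -1.42), 7 of them at an unadjusted p-value below 0.05. Their libraries overlapped with PBS, and DESeq2 called 0. All tested cartilage and hair follicle markers lay below 0 too. Of 5 fibroblast markers edgeR called 0, with 2 at an unadjusted p-value below 0.05 and 0 by DESeq2. All 5 lay below 0, however, and both of these 2, Col1a2 (-0.61, adjusted p = 0.028) and Dcn (-0.31, adjusted p = 0.029, edgeR quasi-likelihood test), also passed the adjusted p-value. Their summed level was 3981 to 4491 CPM against 5471 to 6109 CPM in PBS, without overlap. Among 5 sebaceous gland markers 1 was called raised (Fabp5, 2.13), a fatty acid binding protein that keratinocytes also make. The other 4 lay below 0, and 2 of them, Awat2 (-0.93, adjusted p = 0.0034) and Mc5r (-0.66, adjusted p = 0.029, edgeR quasi-likelihood test), had libraries wholly below PBS without reaching the fold change threshold. Of 6 basal keratinocyte markers 1 was raised (Krt14, 1.38) and 1 lowered (Krt15, -1.18), with sums of 15848 to 19776 CPM against 9248 to 11126 CPM. The sum was higher although 4 of the 6 markers lay below 0, Krt5 (0.87) being the other gene above 0. Of these 4, Col17a1 (-0.42, adjusted p = 0.0020) and Itgb4 (-0.16, adjusted p = 0.093, edgeR quasi-likelihood test) had libraries wholly below PBS without reaching the fold change threshold. The 6 suprabasal markers summed to 19453 to 21662 CPM after the combination, above the 9569 to 13965 CPM of PBS, with 1 of 6 called raised (Krt1). Of the 6, 4 lay above 0, while Dsg1a (-0.30) and Sbsn (-0.05) lay below it. No gene of these lists was at 0 in the combination libraries, apart from 1 cartilage marker. Their part in the Lce1 levels was not tested.

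The genes whose pattern was most like the mean log2 CPM of the 10 Lce1 genes over the 12 libraries were Lce1j (Pearson's r 0.974), Lce1i (0.971), Gramd1c (0.936), Crct1 (0.935) and Aif1l (0.934). After removal of the group means they were Lce1i (0.995), Prss8 (0.993), Lce1j (0.988), Lce1l (0.985) and Crct1 (0.975). Prss8, which encodes the membrane serine protease prostasin of the upper epidermis, had mean levels of 38.1, 30.2, 44.9 and 41.1 CPM in PBS, IL-17A, IL-36γ and the combination. For Lce1m by itself, a search added after its values were seen found Il1f10 (r 0.994), Serpina12 (0.988), Tesc (0.985), Flg2 (0.984) and Cldn23 (0.984). Il1f10, which encodes the IL-1 family cytokine IL-38, had mean levels of 10.2, 7.20, 4.54 and 2.46 CPM in the same order of groups, and Serpina12, a serine protease inhibitor also known as vaspin, had 162, 111, 75.4 and 44.6 CPM. Cldn23, a claudin of tight junctions, had 24.3, 20.1, 17.4 and 11.4 CPM. Like Lce1m, these genes had their highest mean in PBS and their lowest after both cytokines, which follows from their selection by correlation with Lce1m.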

How the data were processed

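RNA-Seq was performed on the ears of 12 mice, with 3 mice for PBS, for either cytokine and for their combination. The authors deposited raw counts per Ensembl gene, made with STAR 2.5.2b on mm10 and featureCounts of Subread 1.5.1. The strand setting of the counting was not given in the sources used here. Gene symbols came from a deposited table of a comparison, and the fold changes and p-values of the authors' 5 comparison tables were not used. No count column was left out. Groups came from the sample labels, and libraries within a group all differed by more than counting noise (chi-square per gene 7.03 to 63.3).

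Genes were filtered with filterByExpr (minimum count 10) and normalised by TMM, and the 4 group means were tested in 1 quasi-likelihood fit (R 4.3.3, edgeR 4.0.16, limma 3.58.1). DESeq2 1.42.0 with a likelihood ratio test was an alternative. The total per library ranged from 25293468 to 34759293 counts, and the biological coefficient of variation was 14.2%. P-values set the difference between groups against the spread between mice within groups, estimated over all 12 libraries. In simulated data, 178 of 200 genes changed by a log2 value of 2 (89%) were recovered in IL-17A + IL-36γ against PBS, and 156 (78%) in the interaction, among 19408 genes each.

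Same-numbered mice were checked for shared deviations. In the combination against IL-36γ every pair correlated above 0.1 (0.13 to 0.24), and the replicate block there moved the number of genes called from 2 to 0. In the other comparisons not every pair did. In the combination against PBS, replicates 1 and 3 had 0.31 and 0.35 and replicate 2 had -0.20. The labels give a replicate number only, so that any pairing rests on these correlations.

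The Lce1 genes, the other lists and the alternatives were chosen with earlier results of these data known. Named genes were the Lce1, Lce3 and Lce6a genes, the 3 genes of each list with the largest absolute log2 fold change in IL-17A + IL-36γ against PBS among those called without overlap, always Lor, Flg, Ivl, Krt1, Krt10 and Klf4, and the 5 genes most correlated with the mean of the Lce1 genes. Other genes were named after their values were seen. The values of 1 further listed gene are not reported here. Positions and lengths came from GENCODE vM21 (GRCm38), the promoters from RefSeq. The alternatives were DESeq2, other scalings, other filters (none, or at least 10 counts throughout), a fit of just the compared groups, dropping the fold change threshold, the replicate block and leaving out each library.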

Additional observations from a re-analysis of the deposited data

Results flagged for a closer look

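Among the regulators of epidermal differentiation that are named here, the effect of IL-17A differed with and without IL-36γ for Junb, a subunit of AP-1 (interaction term of edgeR's quasi-likelihood test, adjusted over all genes). Its interaction was -1.26 on the log2 scale (adjusted p = 0.044), with 9 of 19 fits below an adjusted p-value of 0.05 and a range of -1.42 to -1.08. No interaction was called for a Lce1 gene by edgeR, and that of Lce1m was -1.02 ± 0.62 (SE).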

How the results depend on the processing

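The alternatives kept the direction of Lce1m and Lce1f against PBS. Genes called after IL-17A were 407, and 664 with DESeq2, 9 in a fit of only the groups compared, 2120 without the fold change threshold, 757 with the skeletal muscle marker level as a covariate (added after seeing the data) and 11 to 913 with a library left out. After IL-36γ 1377 were called, and 5519 without the threshold and 1047 to 1799 with a library left out. After IL-17A + IL-36γ 2603 were called, and 8664 without the threshold and 2202 to 3170 with a library left out. For the combination against IL-36γ 2 were called, and 102 with DESeq2, 82 without the filter, 4 without the threshold, 0 under library size only, a filter of 10 counts throughout, a fit of just these groups, the covariate and the replicate block, and 0 to 62 with a library left out. Against IL-17A 1737 were called, and 6355 without the threshold, 977 with the covariate and 1291 to 1990 with a library left out. Interactions numbered 107, and 1935 with DESeq2, 38 with DESeq2-type size factors, 3 under library size only, 462 without the filter, 190 with the covariate, 883 with the replicate block and 1 to 1534 with a library left out. The cause of these shifts was not tested.

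Of the 10 Lce1 genes, 1 was called raised after both cytokines, and 0 were under library size only, only the groups compared and the covariate, with 0 to 1 over libraries left out. After IL-36γ leaving out a library gave 0 to 1 lowered and 0 to 3 raised. Against IL-36γ 1 (Lce1m) was called lowered without the filter. Against IL-17A leaving out a library gave 0 to 2 raised. Their median log2 fold change over libraries left out was -0.41 to 0.10 after IL-17A, 0.13 to 0.59 after IL-36γ, -0.48 to 0.21 after both, -0.80 to -0.08 against IL-36γ and -0.25 to 0.48 against IL-17A, and the log2 change of their summed level, -0.55, was -0.93 to -0.23. The replicate block changed no call of a Lce1 gene. With 3 mice per group and standard errors of 0.30 to 0.44, smaller changes of single Lce1 genes were not detectable.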
